A study of Mus musculus with 14 samples.

Results

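The binding sites of Gata2 in Hoxb8-FL cells were measured by ChIP-seq, and the deposited list held 3217 peaks on the 19 autosomes and chromosome X, out of 279955 peaks in the lists of 13 transcription factors. All 3217 were taken and split by overlap. A peak that overlapped a peak of any of the other 12 lists by 1 bp or more was called shared, and the rest were called alone. The rule gave 951 shared peaks and 2266 alone. The genes and the partner factors of the shared peaks were then described for peaks whose midpoint lay within 1 kb of either end of a protein-coding gene (near) and for those beyond 1 kb (distal).

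Hoxb8-FL is a mouse line of multipotent haematopoietic progenitors, kept from maturing by a Hoxb8 protein that is active in the presence of estradiol, and labelled as LMPP-like (resembling lymphoid-primed multipotent progenitors). All libraries came from the same untreated line grown with estradiol and FLT3, so the comparisons below are between factors and not between conditions. Each factor had 1 library, Gata2 with an antibody from Santa Cruz, and a rabbit IgG library had no peak list used here. Cells were fixed for 10 min in formaldehyde at 0.4% or at 1%, and the labels do not say which of these applied to Gata2. The files hold positions only, so depth is unknown, expression was not measured and the label of the cells could not be checked against marker genes. Intervals below are exact binomial 95% intervals and cover counting error only, not a second culture or a second immunoprecipitation. No p-values were computed.

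Gata2 is a zinc finger transcription factor that recognises GATA motifs and is required to form and maintain haematopoietic stem and progenitor cells. It also acts in mast cells, basophils and megakaryocytes, and gives way to its relative Gata1 as erythroid cells mature. On DNA it is known to join complexes with the basic helix-loop-helix factors Tal1 and Lyl1 through the bridging protein Lmo2, and to bind enhancers together with Fli1, Erg and Runx1, a group often called the heptad.

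Promoters under shared Gata2 peaks were read from RefSeq windows of the GRCm38.p6 assembly, the build of the peak files, each running from 250 bases before to 50 bases after a transcription start. The first 6 sequences below, made of the 70 bases before the start and the 30 from it on, are shown because they carry the word that most set Gata2 promoters apart from promoters of the other factors. The word, AAGATGGC or its reverse complement GCCATCTT, is in capitals. It is the core of the motif known for YY1, a zinc finger factor that was not assayed. They are the protein-coding genes with the most other factors among the 29 whose word lay within both the printed bases and the Gata2 peak.

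AU040320, chr4:126753485-126753584, + strand: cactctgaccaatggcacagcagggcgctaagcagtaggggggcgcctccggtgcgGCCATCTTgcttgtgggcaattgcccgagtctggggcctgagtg
Prepl, chr17:85090245-85090344, - strand: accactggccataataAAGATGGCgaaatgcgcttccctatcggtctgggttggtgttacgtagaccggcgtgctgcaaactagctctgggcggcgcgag
Osbpl11, chr16:33185001-33185100, + strand: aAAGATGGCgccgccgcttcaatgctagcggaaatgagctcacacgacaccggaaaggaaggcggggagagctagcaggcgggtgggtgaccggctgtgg
Ing4, chr6:125039778-125039877, + strand: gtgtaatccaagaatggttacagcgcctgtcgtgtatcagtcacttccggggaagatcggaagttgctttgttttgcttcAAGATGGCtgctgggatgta
Cradd, chr10:95324108-95324207, - strand: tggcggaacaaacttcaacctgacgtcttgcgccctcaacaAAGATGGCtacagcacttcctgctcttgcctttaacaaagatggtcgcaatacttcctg
Fuz, chr7:44896009-44896108, + strand: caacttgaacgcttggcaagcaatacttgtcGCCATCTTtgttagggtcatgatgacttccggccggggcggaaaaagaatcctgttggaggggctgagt

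The next 3 are shown because they are all the promoters of protein-coding genes in which a GATA motif, AGATAA or TGATAA on either strand (in capitals), lay within both the printed bases and a shared Gata2 peak. The same rule had found 29 promoters with the YY1-type word. In the full windows the counts were closer. Of 381 windows with a shared Gata2 peak, 37 held a GATA motif (9.71%) and 79 the YY1-type word (20.7%). In windows with 2 or more other factors and no Gata2 the shares were 10.5% and 4.51%.

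Pigu, chr2:155357395-155357494, - strand: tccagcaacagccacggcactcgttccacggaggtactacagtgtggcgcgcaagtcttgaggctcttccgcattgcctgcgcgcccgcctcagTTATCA
Zfp952, chr17:32993069-32993168, + strand: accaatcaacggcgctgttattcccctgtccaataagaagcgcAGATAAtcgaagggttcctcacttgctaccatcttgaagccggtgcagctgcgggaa
Tubd1, chr11:86544921-86545020, + strand: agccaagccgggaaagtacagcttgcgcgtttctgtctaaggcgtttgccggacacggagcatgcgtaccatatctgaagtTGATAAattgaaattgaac

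Of the 6 genes with the YY1-type word, Prepl encodes a prolyl endopeptidase-like hydrolase, Osbpl11 a sterol-binding protein, Ing4 a reader of histone marks, Cradd a death-domain adaptor and Fuz a protein of cilium formation. The Gata2 peak at AU040320 overlapped 7 other lists and that at Prepl 6. At Osbpl11 and Ing4 it overlapped 5 each, and at Cradd and Fuz 4 each. Of the genes with a GATA motif, Pigu, a subunit of the enzyme that attaches proteins to a lipid anchor, had 4 other factors at its Gata2 peak. Zfp952, a zinc finger gene, had 3, and Tubd1, which encodes delta-tubulin, had 2.

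Shared Gata2 peaks lay at genes far more often than Gata2 peaks alone. Of the 951 shared peaks, 370 were near a gene boundary (38.9%, 95% interval 35.8 to 42.1), against 73 of the 2266 alone (3.22%, 2.53 to 4.03). The difference was 35.7 percentage points (Newcombe interval 32.5 to 38.9). Read the other way, 83.5% of all near Gata2 peaks were shared but only 20.9% of the distal ones. The split at 1 kb cut through few peaks: 7 shared peaks lay between 0.8 and 1 kb and 11 between 1 and 1.2 kb, while 283 lay within 0.2 kb. The median distance to a boundary was 4.23 kb for shared peaks and 34.3 kb for those alone.

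The size of this contrast depended on how much of the other lists was used. When each other list was reduced to its first lines, as many as the Gata2 list has, 22.2% of the Gata2 peaks then shared were near a boundary and 12.5% of those then alone. Location also differed beyond 1 kb. The distal shared peaks had a median distance of 18.9 kb and the distal peaks alone 37.2 kb. Of the distal shared peaks 54.7% (50.6 to 58.8) lay inside a gene body, against 39.3% (37.3 to 41.4) of the distal peaks alone.

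With the lists at their full, unequal lengths, no other list had so large a share of its shared peaks near genes. Across the other 12 lists that share ran from 5.86% for Meis1 to 27.5% for Runx1, below the lower bound for Gata2. Fli1 had 21.9%, Spi1 16.5% and Lmo2 15.5%. Of the peaks that stood alone, the other lists had between 3.30% (Meis1) and 53.9% (Runx1) near genes. Gata2, Meis1 and Tal1 (3.43%) lay together at the low end of that range, and their intervals overlapped. At these full lengths, shared peaks of the Gata2 list were thus placed most like those of Runx1 and Erg (26.5%), and its peaks alone like those of Meis1 and Tal1. With every list reduced to its first 3217 lines, an alternative added after the values were seen, the shared near share was 22.2% (18.3 to 26.5) for Gata2 and ran from 4.33% for Meis1 to 18.1% for Erg in the others. The Gata2 and Erg (16.6 to 19.6) intervals then overlapped. Runx1 had 12.5% (11.2 to 13.9). Of the peaks then alone, 12.5% (11.3 to 13.8) were near for Gata2. Meis1 had 5.48% (4.42 to 6.70) and Tal1 5.10% (2.23 to 9.79), so the likeness to these lists was lost. Cebpb (12.7%) and Lmo2 (13.7%) were then closest to Gata2 in that share.

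Most near shared peaks were at the start of a gene. Outside chromosome 18, whose promoters were not analysed here, 297 of 362 (82.0%, 77.7 to 85.9) had a transcription start within 1 kb. Counting all 926 shared peaks off that chromosome, 31.2% (28.2 to 34.3) had their midpoint within 250 bp of a start, against 1.50% (1.04 to 2.10) of the 2197 alone. Peaks of both kinds concentrated just upstream: the 100 bp before the start held 149 shared peaks and 22 alone, and the 100 bp after it 53 and 2. Runx1 (22.0%) and Erg (20.7%) had the largest shares within 250 bp of a start among the other lists, over all their peaks, and Meis1 (2.18%) the smallest. Over all its peaks Gata2 had 10.3%.

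**Figure D1:**
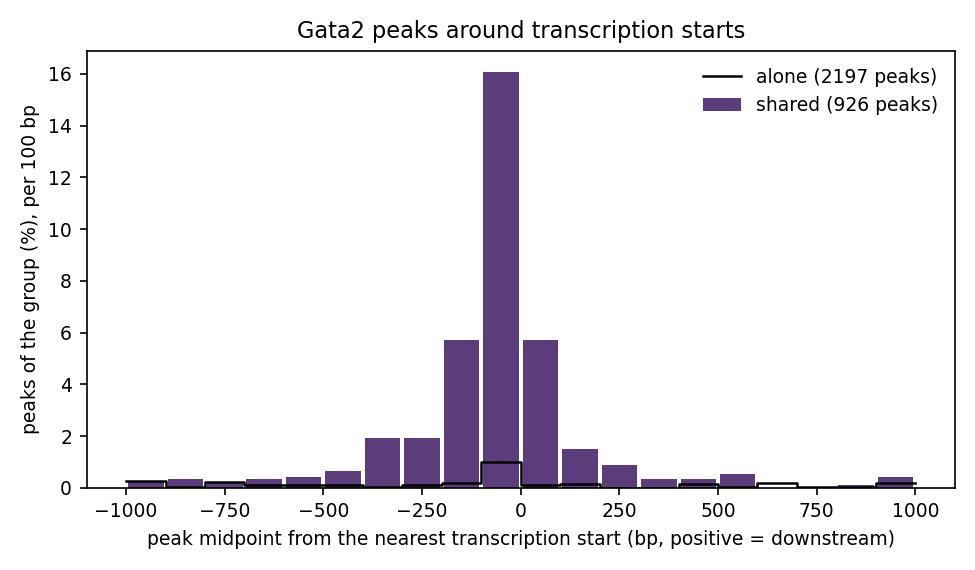
Gata2 peaks around the nearest transcription start, with the distance of the peak midpoint from the start in bp (x axis, positive downstream) and the share of the peaks of each group per 100 bp (y axis). Bars are the 926 shared peaks and the black line the 2197 peaks alone. Shared peaks pile up at the start, highest in the 100 bp before it (149 peaks), where the line also has its only clear step (22 peaks).

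The order of the lines, whose meaning is not stated, moved with sharing. The list was cut into 10 equal parts by line. In the first 10% of the lines 44.1% of peaks were alone (38.6 to 49.7), in the next 10% it was 60.2% and in the last 10% it was 79.4% (74.6 to 83.7). Shared near peaks fell from 26.1% of the first part to 5.30% of the last, and shared distal peaks from 29.8% to 15.3%. The shared distal share stayed between 14.3% and 16.5% over the last 6 parts. The first 13 lines were an exception of their own and are described with the loci below.

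**Figure D2:**
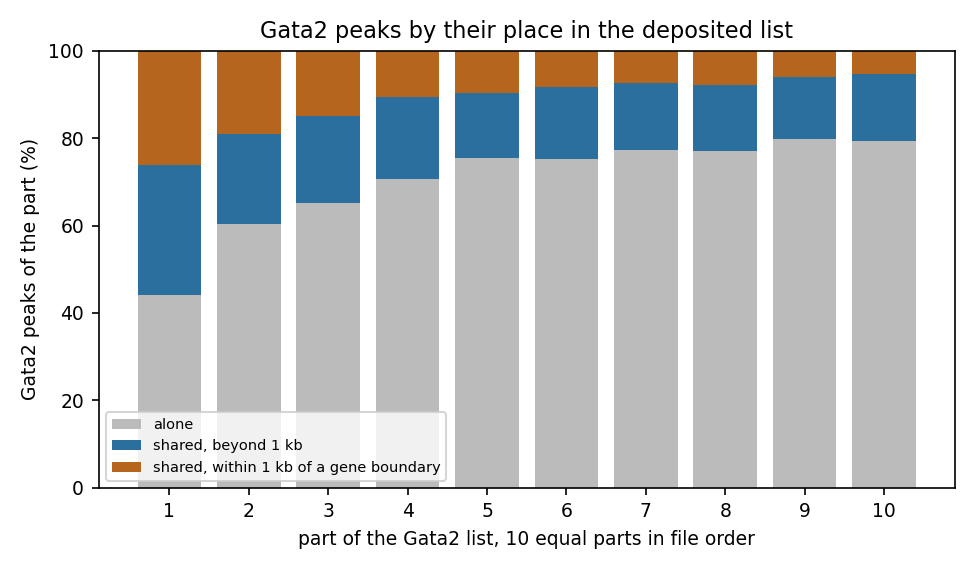
Composition of each of 10 equal parts of the Gata2 list in file order (x axis) as percent of the peaks of that part (y axis). Grey bars are peaks alone, blue bars shared distal peaks and brown bars shared near peaks. The grey part grows from 44.1% to 79.4% and the brown part shrinks from 26.1% to 5.30%.

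Chromosome X was rich in Gata2 peaks that stood alone. It held 108 Gata2 peaks, 3.36% of the list, whereas 1.70% of the peaks of the other lists lay there. Of these 108, 88.0% were alone. Among the autosomes the share alone ran from 62.9% on chromosome 11 to 77.0% on chromosome 8.

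The partners of shared Gata2 peaks differed with location. Over all 951, Fli1 (65.2%), Cebpb (62.6%), Spi1 (62.5%) and Lmo2 (57.3%) overlapped most often. Fli1 and Spi1 are ETS factors and Cebpb is a C/EBP factor of myeloid cells. Cebpa followed with 52.1%, Runx1 with 43.2%, Erg with 36.0%, Tal1 with 33.3%, Lyl1 with 27.4%, Gfi1 with 25.9%, Gfi1b with 21.5% and Meis1 with 18.9%. The lists differ in length, so these shares do not rank the factors by affinity for Gata2 sites.

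Tal1 and Lyl1, the helix-loop-helix partners of Gata2, lay mostly at distal sites. Their whole lists did so too: 6.33% of the shared Tal1 peaks and 7.31% of the shared Lyl1 peaks were near genes. Tal1 overlapped 300 of the 581 distal shared peaks (51.6%, 47.5 to 55.8) and 17 of the 370 near ones (4.59%, 2.70 to 7.25). Lyl1 overlapped 41.7% of distal peaks and 5.14% of near ones, and the homeobox factor Meis1 28.4% and 4.05%. The 3 differences, 47.0, 36.5 and 24.3 points, had Newcombe intervals (42.2 to 51.4, 31.7 to 41.0 and 20.02 to 28.5) well above 0. Lmo2 was found at both: 67.6% of distal and 41.1% of near peaks. At near peaks it mostly came without its helix-loop-helix partners. Lmo2 without Tal1 and Lyl1 was present at 36.5% (31.6 to 41.6) of near peaks and 19.6% (16.5 to 23.1) of distal ones, and Tal1, Lyl1 and Lmo2 together at 2.97% and 40.1%.

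The zinc finger repressors Gfi1 and Gfi1b also lay more often at distal Gata2 peaks, at 33.4% against 14.1% and 28.6% against 10.3%. Cebpa (58.9% against 41.4%), Spi1 (68.2% against 53.5%) and Fli1 (70.2% against 57.3%) differed in the same direction by smaller amounts. For Cebpb, Runx1 and Erg the intervals of the difference included 0. Runx1 overlapped 43.5% of distal and 42.7% of near peaks, a difference of 0.843 points (-5.62 to 7.24). Erg differed by 4.01 points (-2.26 to 10.1) and Cebpb by 5.08 (-1.21 to 11.4). With an overlap of 200 bp or more the Erg interval was above 0 (0.808 to 13.8), and with the other lists reduced to the length of the Gata2 list those of Cebpa and Spi1 included 0. The complete heptad was found at 134 distal Gata2 peaks (23.1%) and at 8 near ones (2.16%).

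**Figure D3:**
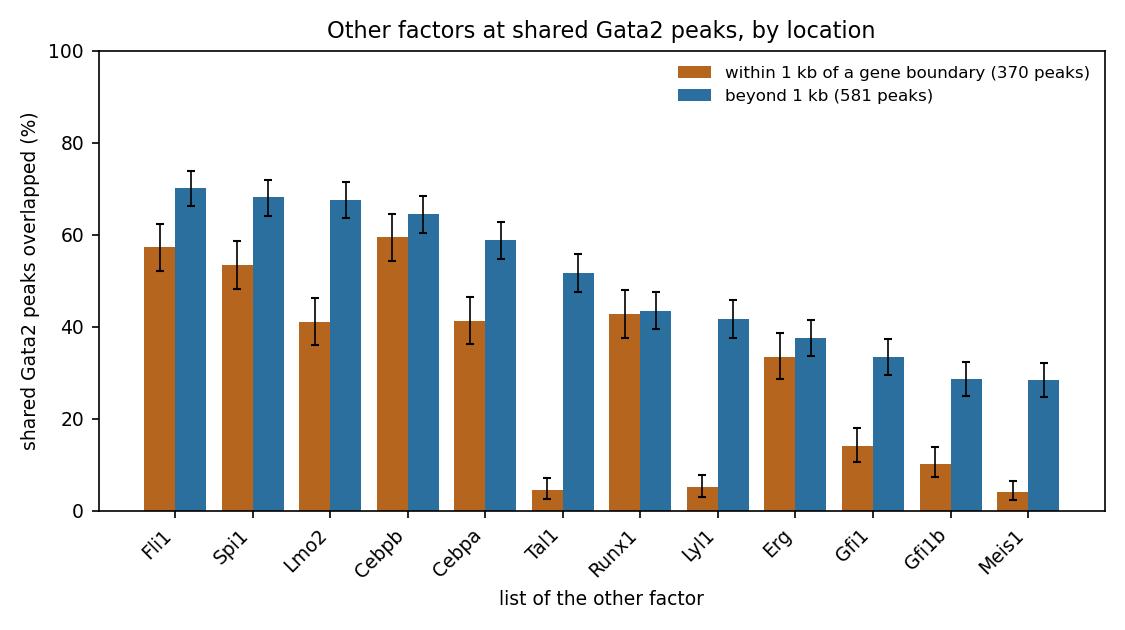
Share of shared Gata2 peaks (y axis, percent) overlapped by each of the 12 other lists (x axis, ordered by the distal share). Brown bars are the 370 near peaks, blue bars the 581 distal peaks and error bars exact 95% intervals. Tal1, Lyl1 and Meis1 have brown bars near 5% beside blue bars of 51.6%, 41.7% and 28.4%, whereas both bars of Runx1 stand at about the same height.

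The other lists also bind promoters and enhancers unequally without Gata2, so near and distal peaks were set beside merged regions of the 12 other lists that held the same number of factors, the same location and no Gata2. At near regions with Gata2 the shares of Cebpb (12.97 points), Runx1 (8.33), Fli1 (5.30) and Erg (4.99) exceeded those without it, and Spi1 (-10.8), Tal1 (-6.46) and Lyl1 (-3.13) fell short, each beyond the exact interval of the Gata2 share. At distal regions Fli1 was in excess, with 71.3% (67.4 to 74.9) against 58.7%. Spi1 (-7.43 points) and Cebpa (-4.51) fell short, and the other 9 factors were within the interval. Because the number of factors was matched, the differences of the 12 lists balance out at each location. An excess of some factors thus entails a shortfall of others, and these are not separate results. Tal1 was in 52.5% of distal regions with Gata2 and in 54.8% of those without it, Lyl1 in 42.3% and 43.7%, and Lmo2 in 68.8% and 66.2%. For a given number of factors, the distal Gata2 regions therefore held Tal1, Lyl1 and Lmo2 about as often as other distal regions did. Of the regions with Tal1, 1.72% (1.00 to 2.74) of the near and 1.88% (1.68 to 2.11) of the distal ones held Gata2. For Lyl1 these shares were 2.76% and 2.98%.

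Near and distal shared peaks also differed in how many factors they gathered. Near peaks overlapped a median of 3 other factors (quartiles 2 and 5) and distal peaks 6 (2 and 9). Among peaks with 3 other factors, 62.2% were near, and among the 202 peaks with 9 or more, 10 were near (4.95%, 2.40 to 8.92). Of the 40 peaks with all 12 other factors, 2 were near. Single partners were named at 173 peaks, led by Spi1 (58), Cebpb (33), Fli1 (25) and Meis1 (16), whereas Erg, Gfi1 and Lyl1 were never the only partner. The lists themselves differ in how many of their peaks overlapped no other list. These were 44684 of 76378 for Spi1, 4632 of 37793 for Cebpb, 802 of 22034 for Fli1 and 5696 of 13736 for Meis1. For Gfi1 they were 690 of 9482, for Erg 45 of 9014 and for Lyl1 29 of 8903. The counts of single partners were not adjusted for this. The 370 near peaks held 151 different sets of partners. Their commonest set of more than 1 factor, at 13 peaks, was Cebpa, Cebpb, Erg, Fli1, Lmo2, Runx1 and Spi1, that is, all lists but Tal1, Lyl1, Meis1, Gfi1 and Gfi1b.

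**Figure D4:**
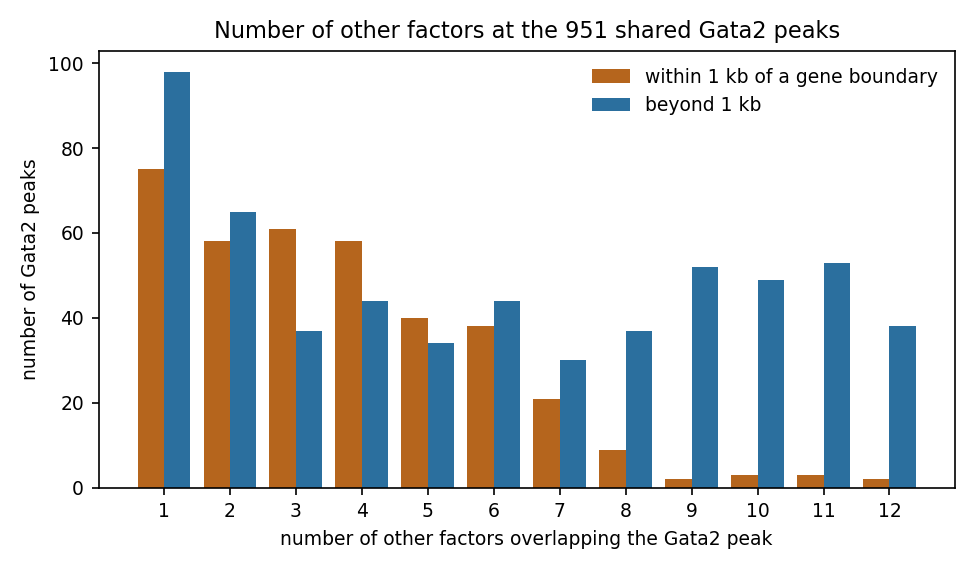
Number of Gata2 peaks (y axis) by the number of other factors that overlap them (x axis), for near (brown) and distal (blue) shared peaks. Near peaks thin out from 8 factors on, with 10 of them at 9 or more, whereas distal peaks keep 38 to 53 at each number from 9 to 12.

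Seen from the other lists, the share of their distal regions that carried Gata2 grew with the number of factors. Among distal regions it was 0.151% with 1 factor, 1.23% with 4 to 6, 4.89% (4.24 to 5.597) with 9 to 12 and 7.16% (5.11 to 9.69) with all 12. Among near regions it was 1.24% with 1 factor, 5.77% (3.93 to 8.13) with 7 or 8 and 3.19% (1.54 to 5.80) with 9 to 12. Near regions with 1 factor thus carried Gata2 as often as distal regions with 4 to 6. Most regions with all 12 other factors still had no Gata2 peak. Regions merged from more peaks can be wider and so have more room for an overlap. Their width was not held equal, and its part in these shares was not tested.

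Shared peaks lay closely over those of their partners. The nearest partner midpoint was a median of 26 bp away at near peaks (quartiles 9 and 67) and 17 bp at distal peaks (4 and 67). Distal peaks had more partners, so this smallest distance was taken over more lists there and the medians are not directly comparable. Fli1 was the closest at distal sites, with a median of 27 bp and 70.6% (65.9 to 74.97) of its 408 overlaps within 50 bp. Lmo2 followed with 37 bp, Lyl1 with 40 bp and Tal1 with 45.5 bp. Spi1, with 76 bp, and Meis1, with 67 bp, lay farthest. At near peaks Fli1 (45 bp) and Cebpb (47.5 bp) were closest and Meis1 (148 bp, 15 peaks) farthest. Each peak is 400 bp wide, so midpoints of overlapping peaks cannot be more than 399 bp apart.

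Gata2 peaks alone stood well away from the other lists. Their median distance to the nearest peak of another list was 9.04 kb (quartiles 3.27 and 27.5). Only 7.11% had one within 1 kb and 47.3% (45.2 to 49.4) had none within 10 kb. The nearest list was Spi1, the longest, for 49.9%, and Meis1 for 12.05%. The 73 near peaks among them were closer, with a median of 3023 bp and 31.5% (21.1 to 43.4) within 1 kb. Gata2 peaks were rarely next to each other: 97 of those alone and 70 of those shared had another Gata2 peak within 10 kb.

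The promoter windows set Gata2 apart by sequence. Of 30535 windows, 1.39% were overlapped by a Gata2 peak, 381 by a shared one and another 43 only by one alone. Overlapping windows of different genes were all kept, so a peak or a copy of a word can count in more than 1 window. The intervals do not allow for this. The YY1-type word was in 79 of the 381 (20.7%, 16.8 to 25.2) and in 9 of the 43 (20.9%, 10.0 to 36.0). It was in 2.78% of all windows and in 4.51% (4.01 to 5.05) of the 6386 windows with 2 or more other factors and no Gata2. The difference from the latter was 16.2 points (12.4 to 20.6). In the windows overlapped by each other list, windows with Gata2 included, the word's share ran from 1.95% for Meis1 to 5.83% for Fli1. With 4 or more other factors, it was 14.9% (10.1 to 21.0) with Gata2 and 4.64% without, and with 1 to 3 other factors 26.6% (20.5 to 33.4) and 3.82%.

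The same link can be turned round, which adds no separate support. Among windows with 2 or more other factors, 61 of 349 with the word carried a Gata2 peak (17.5%, 13.6 to 21.9), against 3.86% (3.40 to 4.37) of the 6343 without it. The word was chosen after its values were seen, as the first in a ranking of all words of 8 letters, read on both strands and present in 10% or more of the 381 windows, by their ratio to the 6386. The 10% limit applied to the Gata2 windows only, so it favoured words common there. Of 35 such words, 6 were more than 2-fold commoner with Gata2. The word itself led with 4.60-fold, and AGATGGCG (3.83-fold), CAAGATGG (3.60-fold), ATGGCGGC (2.72-fold) and CCGCCATC (2.71-fold), which overlap it or one another, were among them. The remaining one, CACGTGAC, holds the E-box CACGTG, known for the factors Usf1, Usf2 and Myc. It was in 12.3% (9.21 to 16.1) of the 381 windows, 3.77% of the 6386 and 2.24% of all, a difference of 8.56 points (5.59 to 12.3) from the 6386. Since the words were picked from these windows, their shares are descriptions.

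The copies of the YY1-type word lay close to the Gata2 peak midpoints. Over the 85 copies in windows of shared peaks the median distance was 34 bp (quartiles 17 and 113), and 61.2% (49.99 to 71.6) were within 50 bp. The transcription start of the same windows was a median of 79 bp from the midpoint and within 50 bp for 36.5% (26.3 to 47.6). Relative to the start, midpoints of shared peaks within 1 kb had a median position of -52 bp and the copies began at a median of -39 bp. No other word was measured in this way, so how much of the closeness comes from these positions was not tested. The word was read along the strand of the gene in 70.6% (59.7 to 79.98) of copies with Gata2 and in 64.8% (59.0 to 70.2) of those with 2 or more other factors and no Gata2. It began at or after the start in 35.3% (25.2 to 46.4) and 50.3% (44.5 to 56.2). A copy in overlapping windows of different genes counted once for each window, with the strand of each gene. These intervals therefore take some copies as separate that are not.

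The GATA motif, in contrast, was no commoner in Gata2 promoters than in other bound ones. AGATAA or TGATAA was in 37 of the 381 windows with a shared Gata2 peak (9.71%, 6.93 to 13.1), in 10.5% of the 6386 and in 18.9% of all windows. The difference from the 6386 was -0.796 points (-3.49 to 2.67). Tal1 had the largest share of any list, 24.6% (21.2 to 28.3) of its 589 windows, followed by Meis1 with 22.6% and Lyl1 with 21.2%. The composite of an E-box and a GATA motif, CANNTG with AGATAA 6 to 9 bases on, was in 1 of the 381 (0.262%), 0.157% of the 6386 and 0.295% of all. The median GC content was 59.0% in windows with a shared Gata2 peak, 60.3% in the 6386 and 52.7% in all. In the windows of Tal1, Meis1 and Lyl1 it was 52.7%, 51.3% and 54.7%. The other lists ran from 58.3% (Cebpa and Cebpb) to 63.3% (Runx1). The part of GC content in the motif shares was not tested. In the 43 windows with only a lone Gata2 peak, AGATAA or TGATAA was in 5 (11.6%, 3.89 to 25.1). These windows cover promoters only. The sequence under peaks away from promoters, which are most of the list, was not analysed here, so the shares say nothing of GATA motifs there.

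The other motifs searched had shares within counting error of those in promoters of the other factors. The ETS words CAGGAA or CCGGAA were in 53.3% (48.1 to 58.4) of the 381 windows, 57.4% of the 6386 and 41.0% of all. TGTGGT (RUNX) was in 11.5% (8.52 to 15.2) of the 381, 14.6% of the 6386 and 16.7% of all. CAGCTG (E-box) was in 11.5%, 14.97% and 16.5%, TTGCNNAA (C/EBP) in 8.92%, 10.9% and 10.9%, and TGACAG (Meis) in 16.3%, 16.8% and 19.1%. TGACTCA or TGAGTCA (AP-1) was in 3.41%, 3.71% and 5.25%, and AGGGGGCGC (CTCF) in 2.10% (0.911 to 4.10), 2.02% and 1.23%. For these 7 the value in the 6386 lay within the exact interval of the Gata2 share. All were read on both strands, and GATA words can overlap the letters of other motifs.

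**Figure D5:**
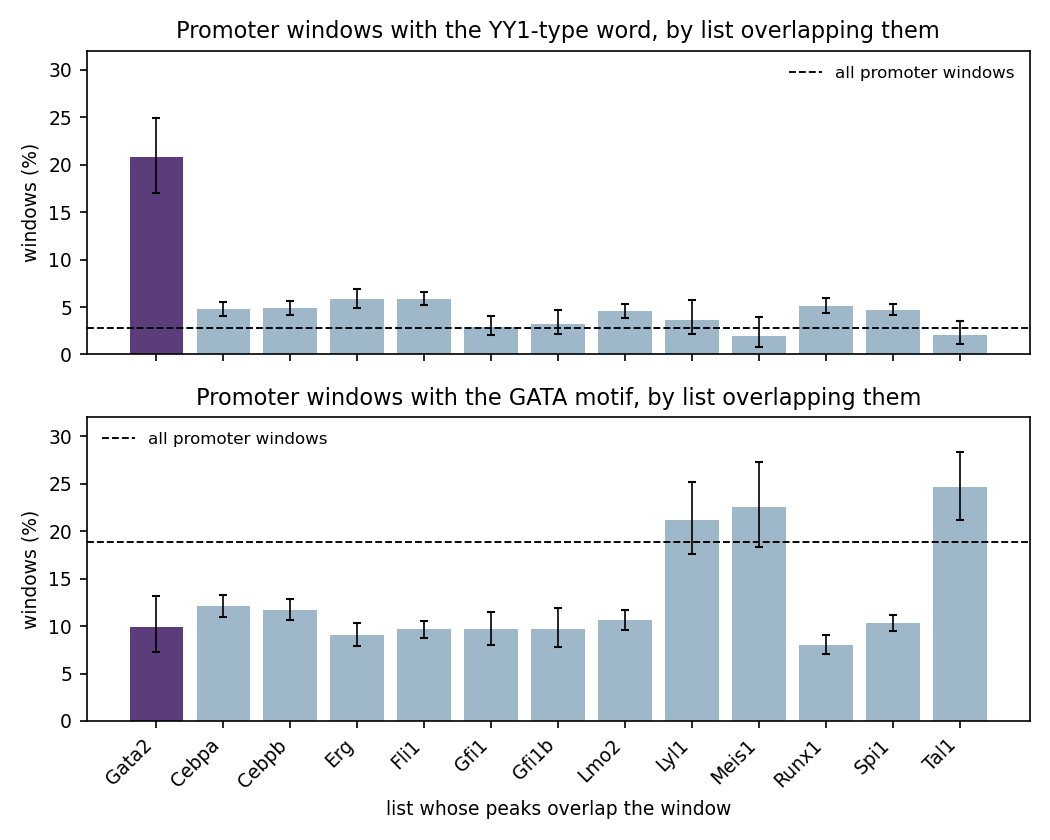
Share of promoter windows (y axis, percent) that hold the YY1-type word (upper panel) and the GATA motif (lower panel), among the windows overlapped by any peak of each of the 13 lists (x axis), with exact 95% intervals; the dashed line is the share in all windows. The Gata2 bar stands at about 20.8% in the upper panel, above all other lists (1.95% to 5.83%), and in the lower panel it lies among the lower bars, below Tal1, Meis1 and Lyl1.

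The near shared peaks with the most partners named genes of several kinds. A total of 441 protein-coding genes had a boundary within 1 kb of a shared Gata2 peak, and 73 of the 370 peaks were near the boundaries of 2 or more genes. The 2 near peaks with all 12 other factors were chr1:144775322-144775721, 0.094 kb above Rgs18, a G-protein regulator of platelets and megakaryocytes, and chr6:34156162-34156561, inside Slc35b4, a nucleotide sugar transporter, 0.489 kb from its lower boundary. Peaks with 11 lay at the boundaries of Nfe2 (0.165 kb), the erythroid and megakaryocyte subunit of NF-E2, Wdr5 (0.050 kb), a core subunit of histone H3 methyltransferase complexes, and the Toll-like receptor gene Tlr12 (0.999 kb). Rgs14, Sde2 and the kinase gene Mapk6 had 10, and the nuclear pore gene Aaas and the proteasome gene Psmc1 had 9. Meis1 was missing at all of these but Rgs18 and Slc35b4. At the windows of Wdr5, Sde2, Mapk6, Aaas and Psmc1 that Gata2 overlapped there was neither the YY1-type word nor a GATA motif, and Sde2 had CACGTG.

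The 38 distal peaks with all 12 other factors included sites at genes of the assayed factors. One lay inside Erg at chr16:95439214-95439613, 80.2 kb from its nearer boundary, and one inside Meis1 at chr11:18924811-18925210, 44.6 kb from it. A further one at chr7:35156507-35156906 was 34.8 kb above Cebpa. The rule for genes named also took the peaks inside Cblb, a ubiquitin ligase that restrains lymphocyte activation (chr16:52081832-52082231), and Cd86, a costimulatory ligand (chr16:36588037-36588436). Alg9, Aopep, Armc2, Cc2d2b and Kctd10 each had 1 inside as well. Exons and introns were not told apart here. Of all 40 peaks with 12 factors, 18 were inside a gene and 22 in the first 50% of the lines.

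At its own gene Gata2 had 2 peaks. The gene spans chr6:88193891-88207032. The peak inside it, chr6:88202971-88203370, lay 9.28 kb above the lower boundary and overlapped Cebpa, Cebpb, Erg, Fli1, Gfi1, Lmo2, Lyl1, Meis1 and Tal1, but not Gfi1b, Runx1 or Spi1. An intronic enhancer of Gata2 is known to be required for haematopoietic stem cells. The other, chr6:88191488-88191887, lay 2.20 kb below the gene and overlapped no other list.

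Of the 11 Gata2 peaks in the loci of the 13 factor genes, 10 were distal. The near one was alone, at chr16:95586931-95587330, 0.530 kb from the upper boundary of Erg. Loci were taken as gene bodies extended by 50 kb on each side, and of all 21631 protein-coding loci 11.1% had a shared Gata2 peak and 14.2% one alone. Of the 13 factor genes, 6 had a shared peak (46.2%, 19.2 to 74.9): Cebpa, Erg, Fli1, Gata2, Meis1 and Runx1. Runx1 had 3, the one with the most partners (11, without Lmo2) being chr16:92800834-92801233 inside the gene. Erg had 2. The Fli1 peak, chr9:32391138-32391537, was 30.9 kb below the gene and overlapped Cebpb, Fli1, Lmo2, Spi1 and Tal1. No Gata2 peak, shared or alone, lay in the loci of Tal1, Lyl1, Lmo2, Spi1, Cebpb, Gfi1 and Gfi1b.

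The lists of cell type genes had 18 to 30 members, so their intervals were wide, and their order changed with the size of the locus. In the mast cell and basophil list 6 of 20 loci had one (30.0%, 11.9 to 54.3) and 1 had one alone. With 10 kb on each side it was 3 and with 100 kb 8, where all protein-coding loci had 5.09% and 17.0%. The 6 were Cd200r3, Hdc (which makes histamine), Il1rl1 (the receptor of interleukin 33), Mcpt4, Mcpt8 and Mitf. The Cd200r3 peak, chr16:45025295-45025694, was inside the gene and overlapped 11 other factors. The proteases Mcpt4 and Mcpt8 shared a single peak, chr14:56093340-56093739, with the neutrophil protease gene Ctsg of the next list. The 6 loci thus hold 5 separate peaks. The peak at Mcpt8 overlapped all factors but Spi1 and lay 8.04 kb above Mcpt8 and 6.35 kb below Ctsg.

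In the granulocyte and monocyte list 5 of 22 loci had a shared peak (22.7%, 7.82 to 45.4): Ctsg, Elane, Mpo, Ngp and Prtn3. With 10 kb it was 1 and with 100 kb 9, beside the same 5.09% and 17.0% of all loci. Mpo, which encodes myeloperoxidase, had 2, the one with 11 partners at chr11:87751620-87752019, 42.0 kb below. The Elane peak overlapped 4 lists and lay at the boundary of another gene, 32.1 kb from Elane. The interval of this list included the 11.1% of all loci, and the lower bound of the mast cell and basophil list was just above it. That bound counts Mcpt4 and Mcpt8 separately although a single peak lies in both loci, so it does not set the list apart.

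The stem and multipotent progenitor list had 4 of 30 loci with a shared peak (13.3%): Egfl7, Hoxa9, Meis1 and Txnip. The Hoxa9 peak, chr6:52217312-52217711, was 5.59 kb below the gene and overlapped Cebpb, Gfi1, Gfi1b and Spi1. In that list 8 loci had a peak alone (26.7%, against 14.2% of all loci), among them Egfl7, which also had a shared one. No interval was computed for this share, and the median locus was 135 kb, against 117 kb for all loci. With 10 kb on each side 3 loci had a peak alone and with 100 kb 8, beside 6.06% and 22.4% of all loci. Of 20 GATA family and cofactor genes 3 had a shared peak, Gata2, Ssbp3 and Tcf3, and that at Tcf3, which encodes the E-protein partner of Tal1, was at the boundary with 7 other factors. Of 20 erythroid genes 3 had one, among them Nfe2 with 2 and Car2 (carbonic anhydrase) with 11 factors 5.91 kb below the gene. Of 18 megakaryocyte genes Gp1ba and Itgb3 had one.

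In the lists of other lineages the intervals all included the 11.1% of all loci. Shared peaks were at 2 of 19 B cell loci and 3 of 18 T cell loci (Cd4, Runx3 and Zap70). They were at 1 of 18 endothelial loci (Egfl7), 4 of 20 housekeeping loci, 1 of 19 liver loci, 2 of 20 neuron loci and 5 of 20 heart and skeletal muscle loci (25%, 8.66 to 49.1). The 5 muscle loci were Acta1, Myh7, Myl2, Nppa and Tnnt3. With 10 kb on each side there was none, beside 5.09% of all loci. The Nppa and Tnnt3 peaks lay over 36 kb from the gene and at the boundary of another one, so a peak in a locus need not belong to the gene listed. Endothelial loci had 6 of 18 with a peak alone (33.3%, no interval computed), against 14.2% of all loci. Their median length was 139 kb, against 117 kb for all loci.

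Peaks alone followed the length of a locus more than shared peaks did. Between the shortest 20% and the longest 20% of loci, the share with a peak alone went from 9.34% to 21.5%, and that with a shared peak from 8.41% to 11.6%. Among the genes with the most peaks alone, Rbfox1, a neuronal splicing regulator, had 7, and Frmd5, Slc39a11 and Nrg1 had 5 each, none of them with a shared peak. Hjurp, a chaperone of centromeric histone, had 4 alone and 4 shared, among them a group of 4 Gata2 peaks at chr1:88226517-88239990.

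A group of 15 Gata2 peaks stood apart on chromosome 11. They lay within chr11:3152979-3193381, a span of 40403 bp inside Sfi1, a gene of the centrosome, and included the first 13 lines of the list. All were distal and 14 were shared, with at most 3 other factors. The Meis1 list had 22 peaks in the span, Tal1 13, Spi1 2 and Runx1 1, and the other 8 lists had none. Meis1 overlapped 12 of the 15 and Tal1 11. Without this group, left out after the values were seen, Tal1 was at 51.0% of distal shared peaks and 70.7% of Gata2 peaks were alone.

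With the lists at full length, Gata2 peaks lay next to genes of small nuclear RNAs more often than the peaks of any other list did. Within 1 kb of such a gene lay 10 Gata2 peaks (0.311%, 0.149 to 0.571), 7 of them shared, and in the other lists the share ran from 0.0225% to 0.115%. The count is small, no intervals were computed for the other lists, and the comparison was not repeated with lists of equal length. The table's genes included Rnu3a, with 2 of the peaks, Rnu7, Rnu11 and Rnu1a1, which serve in the processing of ribosomal RNA, histone RNA and messenger RNA. Genes of microRNAs had 3 Gata2 peaks within 1 kb (0.0933%, 0.0192 to 0.272), at Mir1945, Mir695 and Mir707, against 0.124% to 0.495% in the other lists.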

How the data were processed

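ChIP-seq peaks of 13 factors were taken as deposited. Each list holds positions in base pairs (chromosome, start and end) on mm10, with no count or score, so depth per sample is unknown and limits on precision cannot be given beyond counting error. The authors used MACS2, Bowtie2 and bedtools with mm10 and GRCm38, per the submitters' processing notes. Versions, the peak threshold and the control were not given in the sources used here. All peaks are 400 bp wide.

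Overlaps of 1 bp or more, distances, regions and motif shares were computed with Python 3.11.15, numpy 2.4.6, pandas 2.3.3 and scipy 1.17.1, and checked on simulated data. Genes and 30535 promoter windows (1 per group of overlapping windows of a gene) came from RefSeq tables of GRCm38.p6. The gene table has no strand or exons. No genome was used here, so the planned motif search under peaks was run on promoters. Chromosome 18 promoters were not used here. Shares have exact (Clopper-Pearson) 95% intervals and differences Newcombe intervals. Peaks of 1 library are not replicates, so nothing was tested.

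The members and gene lists were chosen with earlier results of these data known. Genes named were the 13 factor genes, up to 3 per other list with the most shared Gata2 peaks, 10 nearest to and 10 at the boundary of the peaks with the most factors, and 5 with the most peaks alone. Some genes taken by this rule are left out of the text. Other names (the genes of short lists given in full, the small RNA genes, the printed promoters and the group on chromosome 11) were chosen after the values were seen. Of the genes in the lists, Tf of the liver list was not found. Alternatives changed the overlap, the lines, the other lists, the boundary, the locus and the part of the peak.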

Additional observations from a re-analysis of the deposited data

How the results depend on the processing

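Of 46 alternative values for 12 results, 28 stayed within the counting interval of the value reported and 18 moved; shared peaks were near genes more often than those alone under all of them. The share of Gata2 peaks alone was 73.2% with an overlap of 200 bp or more, 63.1% in the first 50% of the lines, 72.2% without the Spi1 list and 87.0% with the other lists reduced to the length of the Gata2 list. With those reduced lists the near shares were 22.2% (shared) and 12.5% (alone), the smallest contrast obtained. They were 35.6% and 2.25% with a boundary within 500 bp, 51.8% and 15.9% within 5 kb, and 42.9% and 6.44% with all genes of the annotation. The shared near share was 43.5% in the first 50% of the lines, and the alone near share 4.12% with the 200 bp overlap. Loci with a shared peak were 5.09% with 10 kb either side and 17.0% with 100 kb. The median distance of peaks alone to another list was 7.77 kb in the first 50% of the lines and 14.99 kb without Spi1. The Fli1 share, the Tal1 shares near and distal, the GATA and YY1-type shares and the near shares at transcription starts stayed within counting error under the alternatives tried for them. Over all 12 partners, Tal1, Lyl1, Meis1, Lmo2, Fli1, Gfi1 and Gfi1b kept a distal excess whose interval lay above 0 under the 200 bp overlap, the first 50% of the lines, the reduced lists and without the chromosome 11 group. With the reduced lists the intervals for Cebpa (6.27 points) and Spi1 (2.29 points) included 0. The interval for Erg excluded 0 with the 200 bp overlap (7.38 points, 0.808 to 13.8) and that for Cebpb without the chromosome 11 group (6.68, 0.373 to 13.003). The other motifs were not recomputed. The alternatives for numbers of factors, distances, the YY1-type word, transcription starts, the 12 partners and the chromosome 11 group were chosen after seeing the data. Where values moved, the cause was not tested, except that reduced or missing lists leave fewer peaks to overlap. Depth cannot be weighed, since the files hold positions only. No paired analysis was possible because each factor has 1 library.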
